A study of Mus musculus with 18 samples.

Results

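A group of 9 genes for apolipoproteins and lipoprotein handling was followed across fat, liver and skeletal muscle of MKR and WT mice: Apoa1, Apoa4, Apob, Apoc3, Apoe, Mttp, Lpl, Lipc and Angptl4. They were listed by symbol, and all 9 were measured among 20358 genes. The MKR groups were fat, liver and muscle of 3 male MKR mice, which carry a mutated IGF1 receptor in skeletal muscle, and the WT groups were the same tissues of 3 healthy male mice. All mice were 10 weeks old on the FVB/N background, ate the same rodent diet freely and were killed with CO2. Each mouse gave 1 array per tissue, so that the 6 groups held 3 arrays each on 18 Affymetrix Mouse Gene 1.0 ST arrays. The promoter that drives the mutated receptor and the depots and muscles taken are not given in the sources used here.

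Lipoproteins carry triglyceride and cholesterol through the blood. In the liver, apolipoprotein B (Apob) is loaded with lipid by the microsomal triglyceride transfer protein (Mttp) to form very low density lipoprotein, while apolipoprotein A-I (Apoa1) is the main protein of high density lipoprotein. Apolipoproteins A-IV, C-III and E (Apoa4, Apoc3, Apoe) move between particles, with C-III slowing the clearance of triglyceride-rich particles and E binding them to receptors. Lipoprotein lipase (Lpl) acts on the capillary wall of fat and muscle, hepatic lipase (Lipc) acts in the liver, and Angptl4 is a secreted inhibitor of lipoprotein lipase.

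Igf1r, the gene changed in MKR mice, had 8.53, 8.32 and 8.51 on MKR muscle arrays, against 6.75, 6.14 and 6.42 on WT muscle arrays, in log2 intensity. The markers of each labelled tissue were high in it: the mean of 8 hepatocyte genes was 11.65 to 11.78 in liver, that of 8 skeletal muscle fibre genes 11.35 to 11.64 in muscle, and that of 8 adipocyte genes 10.56 to 10.79 on 5 of the 6 fat arrays. The remaining fat array, MKR fat replicate 1 (M11 FAT), stood apart, with 9.36 for the adipocyte genes and 10.19 for 15 genes of the epididymis, which averaged 4.82 to 5.14 on the other fat arrays. Igf1r was also at 9.07 on M11 FAT, above the MKR muscle arrays, and at 6.07 to 6.97 on the other fat arrays. Results that use MKR fat are therefore given with and without M11 FAT. WT fat replicates 1 and 2 also stood apart from replicate 3 in Lrp2 and Vil1, which were picked after their values were known. Lrp2, a receptor of kidney and other epithelia, was at 7.48, 5.48 and 5.13 in MKR fat, with M11 FAT at 7.48. In WT fat Lrp2 was at 8.58, 8.38 and 4.93. Vil1, an epithelial cytoskeleton gene, was at 5.88, 4.82 and 5.03 in MKR fat and at 6.36, 6.3 and 4.99 in WT fat. Vil1 is on a list of 6 intestine genes, whose mean was 4.82, 4.91 and 4.76 in WT fat and did not separate these arrays. Lct, also on that list, was at 4.72, 4.71 and 4.89 in WT fat. In bulk tissue, fewer cells of a type and less RNA per cell cannot be told apart.

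The genes of the group fall partly into clusters on the chromosomes. Apoa1, Apoc3 and Apoa4 follow each other on chromosome 9 with Apoa5 as the next gene, and Apoe on chromosome 7 is preceded by Apoc2, Apoc4 and Apoc1. The 250 bases before the annotated start are shown, from RefSeq on GRCm38.p6, because most of these genes were far higher in liver than in the other tissues. Starts were matched by symbol for 6 of the 9 genes, all of them higher in liver. Capitals mark matches on either strand to 4 motifs, which were chosen with the results known and searched in the same 250 bases before each of 32851 annotated starts. The TATA box was searched as TATAAA and was held by 12.4% of all windows. The core motif of nuclear receptors was searched as AGGTCA and was held by 14% of them. The HNF4 element was searched as CAAAGTCC and was held by 1.2% of them. The core motif of HNF1 was searched as GTTAAT and was held by 6.43% of them.
Apoa1 (chr9:46228380-46228629, plus strand): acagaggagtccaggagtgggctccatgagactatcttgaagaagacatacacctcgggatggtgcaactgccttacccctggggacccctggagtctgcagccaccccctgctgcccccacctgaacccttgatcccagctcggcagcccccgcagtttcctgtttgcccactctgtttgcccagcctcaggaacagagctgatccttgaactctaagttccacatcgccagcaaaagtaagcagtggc
Apoa4 (chr9:46240594-46240843, plus strand): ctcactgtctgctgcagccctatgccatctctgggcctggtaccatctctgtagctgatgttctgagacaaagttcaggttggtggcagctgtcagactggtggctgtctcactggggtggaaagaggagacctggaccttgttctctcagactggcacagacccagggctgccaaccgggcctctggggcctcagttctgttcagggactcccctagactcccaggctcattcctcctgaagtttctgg
Apob (chr12:7977427-7977676, plus strand): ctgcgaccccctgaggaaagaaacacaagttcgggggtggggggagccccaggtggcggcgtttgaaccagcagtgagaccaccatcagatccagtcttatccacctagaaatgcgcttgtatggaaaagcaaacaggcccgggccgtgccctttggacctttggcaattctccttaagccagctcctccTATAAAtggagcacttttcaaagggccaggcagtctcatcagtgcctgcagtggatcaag
Apoe, first of 3 starts (chr7:19699189-19699438, minus strand): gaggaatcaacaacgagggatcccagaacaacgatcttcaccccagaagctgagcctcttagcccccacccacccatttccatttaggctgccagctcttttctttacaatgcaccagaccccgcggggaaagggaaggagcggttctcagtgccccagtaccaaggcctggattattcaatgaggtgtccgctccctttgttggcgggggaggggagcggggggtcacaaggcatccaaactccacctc
Mttp (chr3:138143419-138143668, minus strand): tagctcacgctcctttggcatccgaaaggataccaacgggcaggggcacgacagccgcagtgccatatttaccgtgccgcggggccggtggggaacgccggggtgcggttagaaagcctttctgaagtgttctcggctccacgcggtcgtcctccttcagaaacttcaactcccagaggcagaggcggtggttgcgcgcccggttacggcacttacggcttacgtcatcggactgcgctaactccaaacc
Lipc, first of 2 starts (chr9:70952222-70952471, minus strand): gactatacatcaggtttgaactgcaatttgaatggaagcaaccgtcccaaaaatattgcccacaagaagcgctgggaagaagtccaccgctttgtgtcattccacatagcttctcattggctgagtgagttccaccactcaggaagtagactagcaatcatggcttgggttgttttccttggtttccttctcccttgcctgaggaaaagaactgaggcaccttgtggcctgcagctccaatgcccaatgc
Lipc, second of 2 starts (chr9:70934809-70935058, minus strand): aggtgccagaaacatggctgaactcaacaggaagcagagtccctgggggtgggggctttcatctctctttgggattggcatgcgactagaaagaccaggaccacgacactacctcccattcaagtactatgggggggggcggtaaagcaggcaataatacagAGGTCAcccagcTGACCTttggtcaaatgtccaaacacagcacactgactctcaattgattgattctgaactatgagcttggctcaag
The TATA box of Apob began at -60 from the start, and the second Lipc window held the nuclear receptor motif once on each strand, at -88 and -76. The windows of Apoa1, Apoa4 and Mttp and the first windows of Apoe and Lipc had no match to these letters. The other Apoe windows, not shown, held a TATA box on both strands, overlapping, in the second and the HNF1 motif in the third. A match describes the letters only.

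The level of each gene is the mean of its probe sets in log2 intensity, where a difference of 1 is a doubling. The median gene of an array lay between 5.46 and 5.61, so values near 5 are in the lower part of the scale. Whether such values are above background was not analysed here, and levels of different genes are not set against each other. The plot of the 9 genes by group shows wider gaps between tissues than between genotypes for most of the genes.

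**Figure D1:**
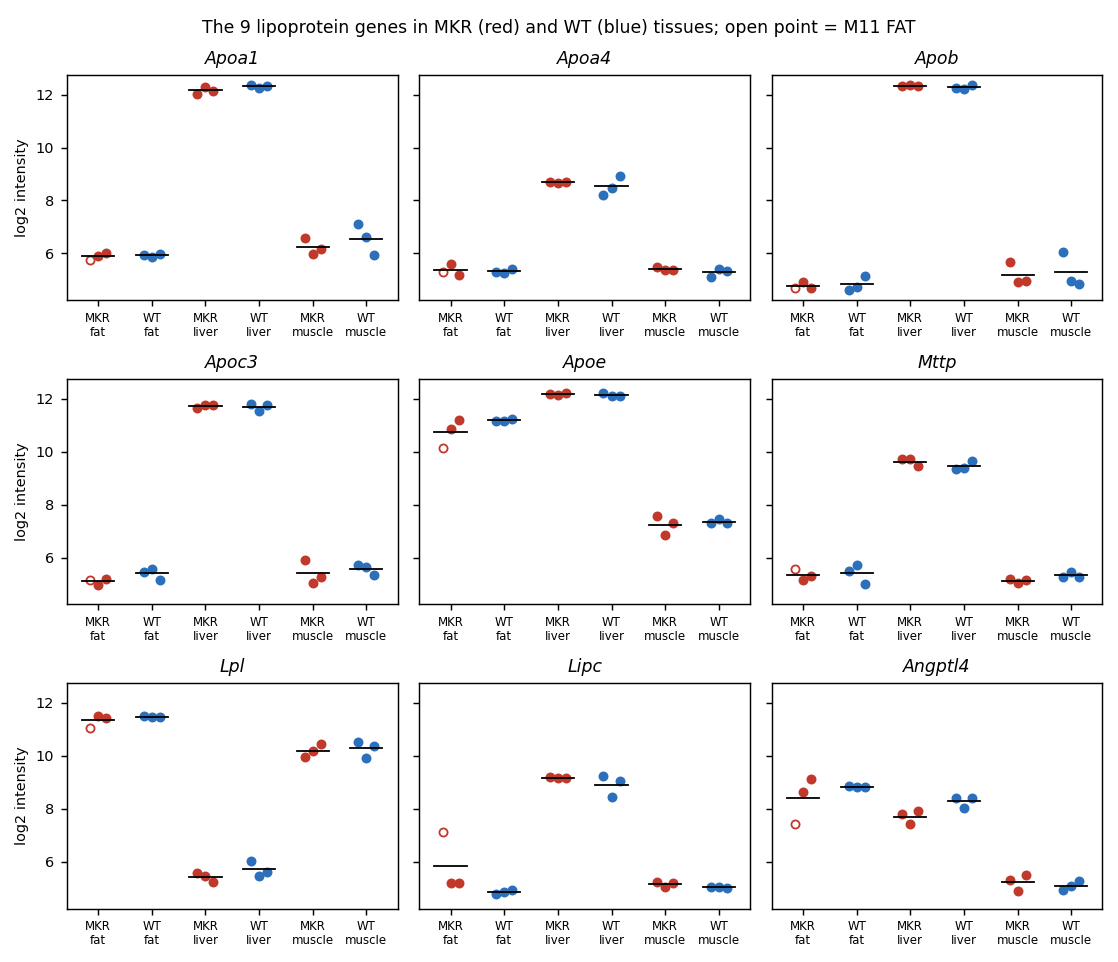
Log2 intensity of the 9 genes on each of the 18 arrays, by tissue and genotype, with MKR in red, WT in blue and the group mean as a bar. The open point is M11 FAT, which lies at 7.13 for Lipc, 7.44 for Angptl4 and 10.15 for Apoe, apart from the other fat arrays.

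Of the 9 genes, 8 passed the test between liver and fat of WT mice, 7 with the higher value in liver and Lpl with the lower, at an adjusted p under 0.05 in limma. In the same comparison 35.4% of all genes passed, 16.5% with the higher value in liver and 19% with the lower. All 9 passed between liver and muscle, 8 with the higher value in liver, where 40.4% of all genes passed, 18.9% higher and 21.5% lower. Between fat and muscle 4 of 9 passed, 3 with the higher value in fat, beside 37.8% of all genes, 19.5% higher and 18.3% lower. In MKR mice 8 of the 9 passed between liver and fat, 9 between liver and muscle and 3 between fat and muscle, beside 35.5%, 39.6% and 33.9% of all genes. Without M11 FAT these counts were 9, 9 and 3, beside 36.7%, 43.3% and 33.8% of all genes, and the added call was Angptl4, which was -0.70 in MKR liver over MKR fat with M11 FAT (adjusted p = 0.0778 in limma) and -1.19 without it (adjusted p = 5.73e-05). The median difference of the 9 genes was 4.05 for liver over fat and 4.13 for liver over muscle, against 0.01 over all genes in both. The share called between fat and muscle was close to that of all genes.

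Apob was measured in liver at 12.32, 12.35 and 12.34 in MKR mice and at 12.24, 12.22 and 12.35 in WT mice. In fat it was at 4.71, 4.91 and 4.68 in MKR mice and at 4.62, 4.73 and 5.14 in WT mice. All 34 probe sets of Apob were higher on every WT liver array than on any WT fat or WT muscle array. The difference in WT mice was 7.44 ± 0.26 (SE) for liver over fat, at an adjusted p of 4.43e-13 in limma. Mttp, which lipidates its product, had 9.71, 9.72 and 9.45 in MKR liver and 9.35, 9.39 and 9.65 in WT liver, with overlap between the genotypes. In fat Mttp was at 5.56, 5.15 and 5.32 in MKR mice and at 5.51, 5.72 and 5.0 in WT mice, and WT liver was 4.05 ± 0.16 above WT fat (adjusted p = 2.51e-12 in limma).

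Apoa1 was at 12.03, 12.29 and 12.15 in MKR liver and at 12.37, 12.24 and 12.31 in WT liver. It was at 5.74, 5.91 and 6.01 in MKR fat and at 5.94, 5.88 and 5.98 in WT fat, which puts WT liver 6.37 ± 0.21 (SE) above WT fat. Apoc3 was at 11.65, 11.75 and 11.78 in MKR liver and at 11.79, 11.52 and 11.75 in WT liver, with 5.14, 4.97 and 5.20 in MKR fat and 5.46, 5.58 and 5.16 in WT fat. Both genes thus had liver values far from those of fat, and genotypes that overlapped within each of these tissues. WT liver was 6.29 ± 0.18 above WT fat for Apoc3 and 3.22 ± 0.15 above it for Apoa4. The liver values of Apoa4 were 8.71, 8.66 and 8.69 in MKR mice and 8.21, 8.48 and 8.92 in WT mice. Apoa5, which lies next to them, had a mean of 9.78 in WT liver and 4.77 in WT fat.

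Apoe was high in both liver and fat and lower in muscle. Its liver values were 12.18, 12.15 and 12.23 in MKR mice and 12.23, 12.12 and 12.12 in WT mice. In fat they were 10.15, 10.86 and 11.19 in MKR mice, with M11 FAT the lowest, and 11.17, 11.15 and 11.24 in WT mice. In muscle they were 7.57, 6.86 and 7.31 in MKR mice and 7.31, 7.46 and 7.29 in WT mice. The 3 tissues did not overlap in either genotype. WT liver was 0.97 ± 0.20 (SE) above WT fat (adjusted p = 0.000976 in limma), and WT fat was 3.84 ± 0.20 above WT muscle, or 14.3-fold (adjusted p = 1.82e-10 in limma). The 3 genes that precede Apoe on chromosome 7 had means in WT fat far below those in WT liver. Apoc1 averaged 10.66 in WT liver, 6.08 in WT fat and 4.12 in WT muscle. Apoc4 averaged 8.70 in WT liver, 5.94 in WT fat and 5.59 in WT muscle. Apoc2 averaged 8.72 in WT liver, 5.09 in WT fat and 4.97 in WT muscle. All 3 had the order of tissue means of Apoe, and among them the gap between fat and muscle was widest for Apoc1.

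Lpl ran the other way. It was at 11.07, 11.52 and 11.43 in MKR fat and at 11.49, 11.47 and 11.46 in WT fat, then at 9.95, 10.20 and 10.46 in MKR muscle and at 10.54, 9.91 and 10.39 in WT muscle. In liver it was at 5.59, 5.47 and 5.24 in MKR mice and at 6.04, 5.46 and 5.63 in WT mice. Fat, muscle and liver were thus separate in this order in both genotypes, and MKR and WT overlapped in each. WT liver lay 5.77 below WT fat (adjusted p = 1.36e-13 in limma), and WT fat was 1.19 ± 0.18 above WT muscle (adjusted p = 6.35e-05 in limma). All 15 probe sets of Lpl were lower on every WT liver array than on any WT fat array. Lipc, the other lipase, had 9.21, 9.15 and 9.17 in MKR liver and 9.23, 8.43 and 9.07 in WT liver. Its muscle values were 5.24, 5.04 and 5.21 in MKR mice and 5.04, 5.05 and 5.02 in WT mice, and WT liver exceeded WT muscle by 3.88 ± 0.35 (adjusted p = 1.01e-07 in limma).

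Angptl4 shared with Apoe a high level in both fat and liver, but with its highest means in fat. Fat had 7.44, 8.65 and 9.14 in MKR mice and 8.88, 8.81 and 8.82 in WT mice, liver had 7.80, 7.42 and 7.90 in MKR mice and 8.40, 8.05 and 8.40 in WT mice, and muscle had 5.31, 4.88 and 5.50 in MKR mice and 4.93, 5.09 and 5.27 in WT mice. WT liver was 3.18 ± 0.30 (SE) above WT muscle (adjusted p = 1.34e-07 in limma). The difference of WT liver from WT fat was -0.56 ± 0.30 and missed the threshold (adjusted p = 0.166), with a 95% interval of -1.19 to 0.07. Without M11 FAT, which widens the spread shared by all groups, the same -0.56 had an SE of 0.17 and passed (adjusted p = 0.0133 in limma). With each mouse as a block it also passed (adjusted p = 0.00542). All WT liver values lay below all WT fat values.

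In the order of the 6 group means, the MKR and WT groups of a tissue stood next to each other for Apoa1, Apob, Apoc3, Apoe, Mttp, Lpl and Angptl4, and their values overlapped in all but 2 of these pairs, Mttp in muscle and Angptl4 in liver. The fat and muscle groups of Apoa4 had means between 5.29 and 5.42 in an order their spread did not separate.

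The study compared MKR with WT mice to ask how type 2 diabetes changes transcripts in each tissue. The mutated receptor and the diabetes come together in MKR mice, so their parts cannot be told apart here. None of the 9 genes passed an adjusted p of 0.05 in fat, liver or muscle, where 0.0393%, 0.0344% and 0.201% of all genes did. With the cut-offs of the study's methods, a fold change above 1.5 at an unadjusted p below 0.05, 1 of the 9 passed in fat (Lipc), none in liver and none in muscle, beside 1.66%, 0.707% and 1.28% of all genes. An unadjusted p under 0.05 alone was reached by Lipc and Apoe in fat and by none of the 9 in liver or muscle, where 7.78%, 5% and 10.5% of all genes reached it. Without M11 FAT, Lipc in fat was 1.27-fold higher at an unadjusted p of 0.0512 in limma and lost both calls, Apoe in fat lost its call, and Angptl4 in liver was the one gene of the 9 with an unadjusted p under 0.05. Of all genes 9.98% in fat, 6.61% in liver and 13.4% in muscle then had such a p, and 2.31%, 0.806% and 1.38% also had the fold change. With 3 arrays a group, an exact permutation test of 1 gene cannot go below p = 0.1. Without M11 FAT none of the 9 passed the adjusted threshold either, when 0.152% of all genes passed in fat, 0.0835% in liver and 0.712% in muscle.

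**Figure D2:**
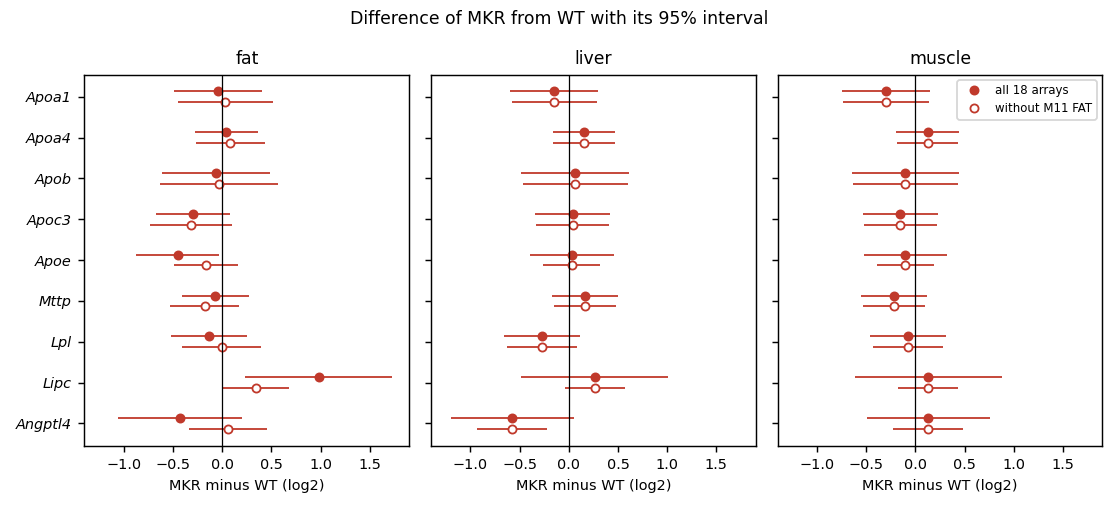
Difference of MKR from WT in log2 for each gene and tissue, with 95% intervals from limma, where filled points use all 18 arrays and open points leave out M11 FAT. In fat Lipc lies at 0.98 with M11 FAT and at 0.34 without it, and Angptl4 in liver lies at -0.57 in both.

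In liver the transcripts of the structural apolipoproteins and of Mttp differed little between genotypes. The difference of MKR from WT was 0.06 for Apob with a 95% interval of -0.48 to 0.61, and 0.04 for Apoc3 with an interval of -0.34 to 0.42. It was 0.03 for Apoe (interval -0.39 to 0.45), -0.15 for Apoa1 (interval -0.60 to 0.30), 0.15 for Apoa4 (interval -0.16 to 0.47) and 0.17 for Mttp (interval -0.17 to 0.50). These intervals do not show that the groups were alike. Of the 19 Mttp probe sets 14 were higher in MKR liver, 4 of them on every array. Lipc differed by 0.26 (interval -0.49 to 1.01), with WT liver replicate 2 low at 8.43, and was 0.023 without that array. Lpl, low in liver, differed by -0.27 (interval -0.66 to 0.12).

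Angptl4 had the largest difference of the 9 genes in liver, and its groups did not overlap: 7.80, 7.42 and 7.90 in MKR liver, against 8.40, 8.05 and 8.40 in WT liver. All MKR values were below all WT values in liver for 5.31% of all genes. The difference was -0.57 ± 0.30 (SE), which is 1.49-fold lower in MKR liver, with an unadjusted p of 0.0707 and an adjusted p of 0.9998 in limma. All 9 probe sets of Angptl4 had a lower mean in MKR liver, by 0.37 to 0.84, and 4 of them were below WT on every array. Without M11 FAT the difference was the same, with an SE of 0.17, an unadjusted p of 0.00344 and an adjusted p of 0.347. Over all settings tried the adjusted p lay between 0.347 and 1. The mean of 5 Kupffer cell genes ran from 6.80 to 7.0 in MKR liver and from 7.15 to 7.43 in WT liver, and that of 10 macrophage genes from 6.24 to 6.33 in MKR liver and from 6.40 to 6.51 in WT liver. The mean of 6 endothelial genes ran from 6.23 to 6.33 in MKR liver and from 6.37 to 6.56 in WT liver. In the group means 5 of 5 Kupffer cell, 9 of 10 macrophage and 6 of 6 endothelial genes were lower in MKR liver. So were 6 of 8 hepatocyte genes and 10472 of all 20358 genes. No gene of these lists passed the test, and the part of these lists in the Angptl4 values was not tested. Hepatocyte genes averaged 11.65 to 11.69 in MKR liver and 11.70 to 11.78 in WT liver.

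**Figure D3:**
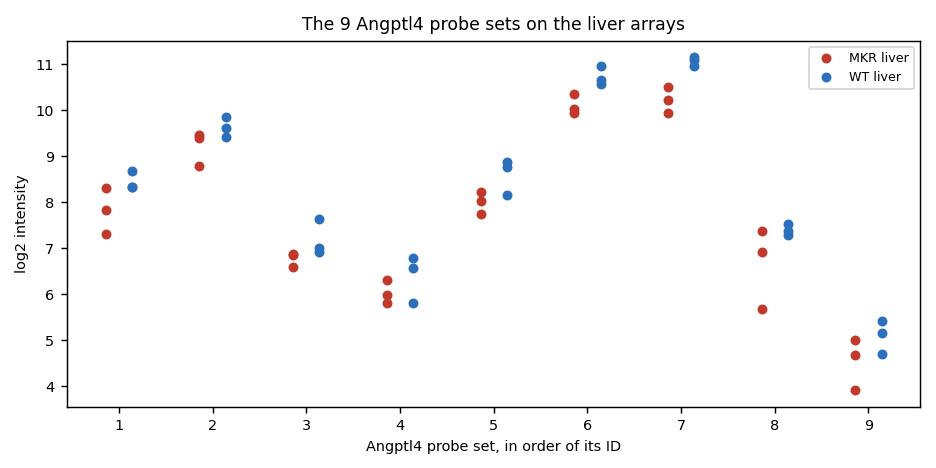
Log2 intensity of the 9 Angptl4 probe sets on the 3 MKR (red) and 3 WT (blue) liver arrays, in order of probe set ID. Every probe set has a lower mean in MKR liver, by 0.37 to 0.84, and 4 do not overlap.

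Genes that act with the lipases or share regulation with Angptl4 were read from lists chosen with earlier results known. Of 12 targets of PPAR factors and glucocorticoids none passed the test in liver, and 6 were higher and 6 lower in MKR mice, with a median of -0.002, against -0.0048 over all genes. Fkbp5, a glucocorticoid-induced chaperone, was at 6.59, 7.16 and 7.97 in MKR liver and at 7.95, 8.10 and 8.39 in WT liver (difference -0.91, adjusted p = 0.938 in limma). Zbtb16, also induced by glucocorticoids, differed by -0.71 (adjusted p = 0.9998). Of 9 partners and inhibitors of the lipases none passed in liver. Pcsk6, a proprotein convertase, was at 8.05, 7.73 and 7.53 in MKR liver and at 7.12, 6.99 and 7.23 in WT liver (difference 0.65, adjusted p = 0.764). Gpihbp1, which anchors lipoprotein lipase on capillaries, was at 6.96, 7.27 and 6.92 in MKR liver and at 7.86, 7.69 and 7.06 in WT liver (difference -0.49, adjusted p = 0.9998).

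In fat, the differences of Lipc, Apoe and Angptl4 moved with M11 FAT. Lipc was at 7.13 on M11 FAT and at 5.20 and 5.21 on the other MKR fat arrays, against 4.78, 4.86 and 4.95 on WT fat arrays. All MKR values were above all WT values, as they were for 5.85% of all genes with M11 FAT and for 16.2% without it. The difference was 0.98 ± 0.35 (SE) with all arrays (unadjusted p = 0.0133, adjusted p = 0.536 in limma) and 0.34 ± 0.16 without M11 FAT (unadjusted p = 0.0512, adjusted p = 0.503). On M11 FAT the signal of Lipc came mainly from 3 of its 12 probe sets, the last 3 in order of ID, at 12.75, 10.68 and 10.23. On the other 5 fat arrays these 3 were at 4.12 to 7.0. The other 9 probe sets were at 5.17 to 7.32 on M11 FAT, and their mean there was 5.77, against 5.09 on both other MKR fat arrays and 4.88, 4.85 and 4.95 on WT fat arrays.

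The probe set at 10.23 on M11 FAT was at only 4.42 to 5.40 on the 6 liver arrays, where the 9 others reached 6.99 to 11.10. The signal on M11 FAT therefore did not have the pattern that liver gave over the same 12 probe sets. With the 3 probe sets left out, an alternative chosen after seeing the data, the difference of MKR from WT fat was 0.42 (adjusted p = 0.61 in limma). Of the genes next to Lipc, Aqp9 was at 7.14 on M11 FAT and at most 5.75 on the other fat arrays, and Adam10 was at 9.26 on M11 FAT and at most 8.31 on the others. The epididymis genes named above were high on the same array, where 14 of the 15 exceeded all other fat arrays, and the median gene was 5.39 above the mean of those arrays. Their part in the Lipc value was not tested.

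**Figure D4:**
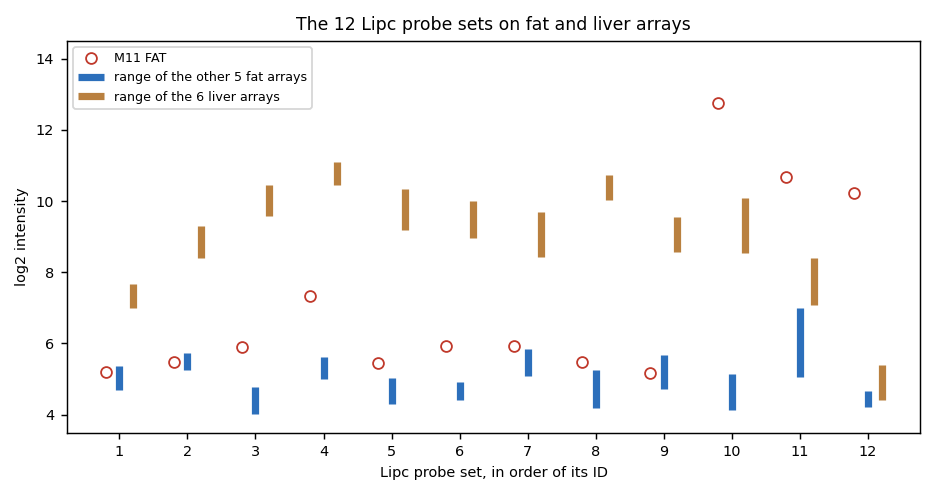
Log2 intensity of the 12 Lipc probe sets in order of ID, on M11 FAT (open points), on the other 5 fat arrays (blue, lowest to highest) and on the 6 liver arrays (brown, lowest to highest). The last 3 probe sets reach 12.75, 10.68 and 10.23 on M11 FAT, above their liver range, while the first 9 lie at 5.17 to 7.32, below it.

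Apoe differed by -0.45 ± 0.20 (SE) in fat with all arrays (unadjusted p = 0.0372, adjusted p = 0.63 in limma) and by -0.16 ± 0.15 without M11 FAT (adjusted p = 0.799). All 5 Apoe probe sets had a lower mean in MKR fat in both cases. Angptl4 differed by -0.43 ± 0.30 with M11 FAT, which held 7.44, and by 0.06 ± 0.19 without it, so its direction rested on that array. Lpl was at 11.07 on M11 FAT and at 11.43 to 11.52 on the other 5 fat arrays. It differed by -0.14 ± 0.18 with M11 FAT and by -0.0028 ± 0.19 without it, with a 95% interval of -0.40 to 0.40. On M11 FAT 7 of 8 adipocyte genes were below every other fat array. So were all 6 endothelial, 9 of 10 macrophage and 4 of 8 hepatocyte genes. The share of all genes that were lowest on this array was not counted. The part of these lists in the Apoe, Angptl4 and Lpl values was not tested. Apoc3, near or below the median gene of an array in fat, differed by -0.30 ± 0.18 with M11 FAT and by -0.32 ± 0.20 without it.

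Among related genes in fat, none of the 10 other apolipoproteins passed with all arrays. Apod, a carrier of small lipids that is made in many tissues, was at 10.99, 8.49 and 7.99 in MKR fat and at 9.84, 9.96 and 9.03 in WT fat, with M11 FAT the highest. The difference was -0.46 with all arrays (adjusted p = 0.88 in limma), and it passed only without M11 FAT, at -1.37 (adjusted p = 0.0193 in limma, when 0.152% of all genes passed). The WT fat arrays highest in Apod, replicates 1 and 2, are those with high Lrp2 and Vil1, whose part in the Apod difference was not tested. Of 9 lipoprotein receptors and uptake genes none passed. Lrp2, with the values given above, differed by -1.26 with M11 FAT (adjusted p = 0.692) and by -1.99 without it (adjusted p = 0.268), and WT fat replicate 3 lay below all MKR fat arrays. Among 13 regulators Hnf4a, a hepatic and epithelial transcription factor, was at 5.83, 5.09 and 5.25 in MKR fat and at 6.18, 6.38 and 5.06 in WT fat (difference -0.71 without M11 FAT, adjusted p = 0.293). The difference of Hnf4a is smaller with M11 FAT, which at 5.83 lay above the other MKR fat arrays. Its highest values were on WT fat replicates 1 and 2, and WT fat replicate 3 lay below all MKR fat arrays. Scarb1, the receptor for high density lipoprotein, was at 7.52, 7.81 and 7.71 in MKR fat and at 8.12, 8.11 and 8.46 in WT fat, a difference of -0.55 with M11 FAT (adjusted p = 0.372) and -0.47 without it (adjusted p = 0.234). Among 12 targets of PPAR factors and glucocorticoids, Pdk4, an inhibitor of glucose oxidation, was at 6.63, 8.42 and 9.12 in MKR fat and at 9.46, 9.49 and 9.53 in WT fat, a difference of -1.43 with M11 FAT (adjusted p = 0.44) and -0.72 without it (adjusted p = 0.29).

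In muscle, where lipoprotein lipase is known to supply fibres with fatty acids, Lpl differed by -0.08 ± 0.18 (SE) between MKR and WT mice, with a 95% interval of -0.46 to 0.31. Mttp was the one gene whose groups did not overlap in muscle. It was at 5.18, 5.03 and 5.14 in MKR mice and at 5.28, 5.47 and 5.25 in WT mice. These values lay near or below the median gene of an array. All MKR values were below all WT values in muscle for 11.3% of all genes. The difference of Mttp was -0.22 ± 0.16 (adjusted p = 0.686 in limma), and its sign turned to 0.03 when the median of the probe sets replaced their mean. Of the 19 Mttp probe sets 14 had a lower mean in MKR muscle, 3 of them below WT on every array, and 5 had a higher one. The median of the probe set differences was -0.32. Angptl4 differed by 0.13 ± 0.30 (adjusted p = 0.942).

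The muscle values of Apob, Apoa1 and Apoc3 moved with albumin transcripts. Alb, the albumin gene of hepatocytes, was at 8.97, 5.29 and 6.14 in MKR muscle and at 9.89, 7.73 and 5.46 in WT muscle, and both replicate 1 arrays held the highest values. Apob was at 5.69, 4.91 and 4.95 in MKR muscle and at 6.07, 4.95 and 4.83 in WT muscle, with the same arrays on top. Apoa1 was at 6.57, 5.99 and 6.18 in MKR muscle and at 7.10, 6.61 and 5.92 in WT muscle, and Apoc3 at 5.92, 5.04 and 5.28 in MKR muscle and at 5.71, 5.63 and 5.35 in WT muscle. Both replicate 1 arrays held the highest 2 values for 5 of 8 hepatocyte genes and for 2 of the 9 genes, Apob and Apoc3. The lower of both values lay above the next array by 1.24 for Alb, 1.25 for Ttr, 0.43 for Fgb and 0.73 for Apob. This gap was only 0.05 for Tat, 0.01 for Ttpa and 0.07 for Apoc3. The share of all genes with the same order was not counted. The mean of the hepatocyte genes ran from 5.10 to 6.20 in MKR muscle and from 5.24 to 6.33 in WT muscle. With all arrays the difference of MKR from WT muscle was -0.10 for Apob, -0.30 for Apoa1 and -0.15 for Apoc3. Without both replicate 1 arrays, an alternative chosen after seeing the data, it was 0.0383 for Apob and -0.18 for Apoa1. For Apoc3 the remaining arrays were at 5.04 and 5.28 in MKR muscle, below the 5.63 and 5.35 in WT muscle, so its difference did not shrink. The part of the hepatocyte genes in these values was not tested.

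**Figure D5:**
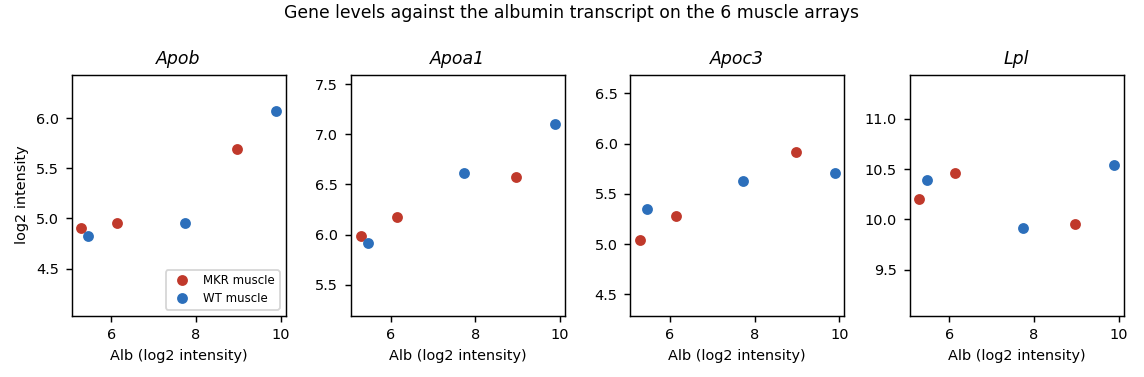
Log2 intensity of Apob, Apoa1, Apoc3 and Lpl against that of Alb on the 3 MKR (red) and 3 WT (blue) muscle arrays, on vertical axes of equal span. The arrays with Alb at 8.97 and 9.89 have the highest Apob values, 5.69 and 6.07, whereas Lpl on the same arrays is at 9.95 and 10.54.

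Apoa1 differed by -0.61 ± 0.21 (SE) between fat and muscle of WT mice, the one gene of the 9 that passed with the lower value in fat (adjusted p = 0.0304 in limma). The call was lost without any 1 of the 3 WT fat arrays and without WT muscle replicate 1 or 2, with adjusted p from 0.0554 to 0.187, and the difference was -0.33 without WT muscle replicate 1. Of the 4 probe sets of Apoa1, 3 had a lower mean in WT fat than in WT muscle, with differences down to -1.25. Probe set 10585006 went the other way, at 0.95, and was higher on every WT fat array. The fat and muscle difference thus also averages opposite signs. The 4 probe sets did not move together between MKR and WT muscle either. Probe set 10585006 was at 8.70, 8.61 and 8.49 in MKR muscle, all above its 7.75, 7.93 and 7.60 in WT muscle, a difference of 0.84, while the other 3 were lower in the mean of MKR muscle, by up to 0.78. The Apoa1 difference of MKR from WT in muscle, -0.30 ± 0.21, therefore averages probe sets of opposite sign, and it was -0.02 without WT muscle replicate 1 and -0.61 without WT muscle replicate 3.

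Among related genes in muscle, none of the 10 other apolipoproteins, 10 assembly and secretion genes, 9 lipase partners, 9 receptors, 11 genes of cholesterol efflux, 13 regulators or 12 PPAR and glucocorticoid targets passed the test. Abca1, which exports cholesterol to apolipoprotein A-I, was at 6.15, 6.12 and 6.32 in MKR muscle and at 6.59, 6.58 and 6.57 in WT muscle (difference -0.38, adjusted p = 0.366 in limma). Fkbp5 was at 6.18, 6.63 and 6.92 in MKR muscle and at 7.10, 8.22 and 8.28 in WT muscle (difference -1.29, adjusted p = 0.252). Sgk1, of the same list, was at 7.84, 7.81 and 7.72 in MKR muscle and at 7.54, 7.54 and 7.17 in WT muscle. It differed by 0.37 (adjusted p = 0.6055 in limma). Of the 12 PPAR and glucocorticoid targets 6 were higher and 6 lower in MKR muscle. Sdc4, a heparan sulfate proteoglycan, was at 6.81, 7.35 and 6.90 in MKR muscle and at 6.57, 6.52 and 6.76 in WT muscle (difference 0.40, adjusted p = 0.366).

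In liver, the same lists held 1 gene that passed without M11 FAT. Cd36, a fatty acid transporter and scavenger receptor, was at 9.36, 7.31 and 9.19 in MKR liver and at 6.86, 6.57 and 6.54 in WT liver, a difference of 1.96 ± 0.36 (SE). Its adjusted p in limma was 0.0669 with all arrays and 0.0435 without M11 FAT, when 0.0835% of all genes passed. Apoc2, the activator of lipoprotein lipase, was at 8.55, 8.23 and 7.89 in MKR liver and at 8.40, 8.74 and 9.02 in WT liver (difference -0.50, adjusted p = 0.832). Abca1 was 0.39 higher in the mean of MKR liver (adjusted p = 0.848). Between the tissues of WT mice, 9 of the 10 other apolipoproteins passed with the higher value in liver over fat, and Apod passed with the lower, beside the 16.5% and 19% of all genes given above.

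The difference of the MKR change between tissues was tested directly. None of the 9 genes passed in any of the 3 pairs of tissues, in which 0% of all genes passed for fat minus liver, 0.0737% for muscle minus liver and 0.103% for fat minus muscle. The change of Angptl4 was 0.71 ± 0.42 (SE) higher in muscle than in liver with all arrays (adjusted p = 0.587 in limma). Without M11 FAT it was 0.71 ± 0.24 (SE) higher in muscle than in liver (unadjusted p = 0.00894, adjusted p = 0.233 in limma) and 0.63 ± 0.25 higher in fat than in liver (unadjusted p = 0.0236, adjusted p = 0.462). With all arrays the difference between fat and liver was 0.15 ± 0.42 (unadjusted p = 0.734, adjusted p = 0.973).

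The genes most like each member over the 18 arrays, by Pearson's r, mainly share its tissue, since the arrays fall into 3 tissues and r describes that division. Apob was most like Slco1b2 (r = 0.9995), a hepatic organic anion transporter, Apoh and Cps1. Apoa1 was most like Cyp2j5, Fgb and Kng1, Apoc3 most like Hrg, Slc10a1 and Fabp2, and Apoa4 most like Mbl1, Gm6614 and Upb1. Mttp was most like Cfi, Mgam and Uox, and Lipc most like Ido2, Elovl2 and Faah. Apoe was most like Trf, Mgst1 and Ugt1a6b, which also had r of at least 0.9949. Lpl was most like Plxdc2 (r = 0.9956), Cav1 and Rps6ka3, and Angptl4 most like Acp5 (r = 0.9868), Pde3b and Ifnar2. Among the 9 genes themselves Apoa1 and Apob had r = 0.9981, Apoa1 and Lpl r = -0.9843, and Apoa1 and Angptl4 r = 0.2714.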

How the data were processed

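The authors extracted total RNA, amplified and labelled it and hybridised it to Affymetrix Mouse Gene 1.0 ST arrays, normalized the arrays by RMA in Partek 6.3 and transformed them to log2. The deposited log2 values (1.52 to 3.82) lie where a second log2 transformation would put RMA values. That second step is an inference, not stated by the authors. Each value was turned back as a power of 2, which gave 2.87 to 14.15, and used as log2 intensity. Of 241419 probe sets, 212138 with 1 symbol were averaged per gene, 4672 with several and 24609 with none were left out. Names came from the RefSeq annotation. MKR was compared with WT with limma 3.58.1 in R 4.3.3 over 18 arrays with 1 mean per group, and p-values were adjusted by Benjamini-Hochberg over 20358 genes per comparison. Precision is limited by 3 arrays a group. That these are separate mice comes from the labels. Raw intensities were not used here, and 0 columns of other samples were left out. Figures and tables were made in Python 3.11.15.

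The 9 genes, the related lists, the tests and the alternatives were chosen with earlier results of these data known. Genes named beside the 9 were drawn, by list and tissue, from up to 4 with the smallest p past the threshold. Where none passed, they were drawn from up to 2 with the smallest p. Not all of these are given above. Those left out include the regulators Foxo1 (difference -0.47, adjusted p = 0.319 in limma) and Ppard (-0.26, adjusted p = 0.331) in muscle. In fat they include Mlxipl (-0.50, adjusted p = 0.529) and Rxra (-0.36, adjusted p = 0.634) with all arrays. For each of the 9, the 3 genes most like it by r were also named. Adam10, Aqp9, the neighbouring apolipoproteins and the single Apoa1 probe set were chosen after their values were seen. The alternatives were the arrays of a tissue alone, replicate and mouse blocks, the median of probe sets, probe sets of several symbols, dim probe sets or genes left out, quantile normalization, centred arrays, no moderation, trend and robust moderation, array weights, deposited values as they stand, the study's thresholds and the omission of each array.

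The mice are the same in the 3 tissues, so each mouse pairs its own tissues, and deviations of the same mouse correlated at -0.119 to 0.203. MKR and WT replicate numbers belong to different mice and do not pair (r from -0.312 to 0.292). The procedure was tested on simulated data.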

Additional observations from a re-analysis of the deposited data

How the results depend on the processing

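No difference of the 9 genes between MKR and WT mice passed an adjusted p of 0.05 under any alternative run, and the count was 0 in all 3 tissues except at the study's thresholds in fat, where it was 1 (Lipc) with M11 FAT and 0 without it. With the replicate block the counts were also 0, and with the mouse as replicate block 9 genes differed between liver and fat, 9 between liver and muscle and 4 between fat and muscle. When 1 array was left out, 8 to 9 genes differed between liver and fat and 3 to 4 between fat and muscle. Array weights gave 0.0288 for Apoa1 and 0.0849 for Apob in fat, 0.0641 for Lpl in muscle and -0.0444 for Apoa4 between fat and muscle. Without both muscle replicate 1 arrays, chosen after seeing the data, the muscle change was -0.0026 for Apoa4, 0.0383 for Apob and 0.18 for Lpl, and Apoa4 differed by -0.0672 between fat and muscle. The median of probe sets gave 0.0304 for Mttp in muscle, and quantile normalization 0.0028 for Lpl in muscle. Centred arrays gave -0.0595 for Apoa4 and -0.0074 for Mttp between fat and muscle. With 1 array left out, the change in fat ran from -0.11 to 0.033 for Apoa1, -0.0831 to 0.13 for Apoa4, -0.17 to 0.0905 for Apob, -0.27 to 0.0852 for Mttp and -0.79 to 0.0562 for Angptl4, and for Lipc from 0.34 to 1.31. In liver it ran from -0.0106 to 0.35 for Apoa4 and -0.0462 to 0.0886 for Apoc3. In muscle it ran from -0.35 to 0.29 for Apob, -0.41 to 0.0319 for Apoc3, -0.27 to 0.0867 for Apoe, -0.26 to 0.0558 for Lpl and -0.002 to 0.30 for Angptl4. Between fat and muscle of WT mice it ran from -0.0672 to 0.0875 for Apoa4 and -0.0786 to 0.28 for Mttp. The cause of these turns was not tested.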
